A study of Homo sapiens with 10 samples.

Results

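The 1899 regions described here are MYC binding peaks that lay outside every mapped region of H3K4me3, H3K27ac and H3K4me1 in RPMI-8402, a cell line from human T-cell leukaemia (T-ALL). Binding and marks were profiled by CUT&RUN, in which an antibody brings a nuclease to its target in permeabilised cells and the DNA cut free beside the target is sequenced. The series has 10 libraries in 4 sets, and 6 peak lists were used, namely MYC of set D, MYC of set C, MYCN of set A, H3K4me3 of set B and H3K27ac and H3K4me1 of set C. The cells carried no treatment or engineered change in the labels, so the libraries differ by antibody and set alone. The members were chosen by position: a MYC peak of set D on chromosomes 1 to 22 or X was kept if it shared not even 1 bp with a region of any of the 3 marks. They make up 10.5% of the 18018 MYC set D peaks, and the other 16119 peaks (89.5%) met at least 1 mark. The lack of a mark is therefore the choice itself and no finding.

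MYC is a transcription factor that binds DNA as a partner of MAX, most often at E-box sequences in promoters and enhancers that are already active. H3K4me3 marks active promoters, H3K4me1 marks mostly enhancers and the flanks of promoters, and H3K27ac marks active elements of both kinds. MYC sites without these marks thus lie outside the mapped chromatin where MYC is usually described, though not always far from it. DNA next to centromeres consists largely of satellite and other repeats, where a short read often fits several places in the genome.

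The lists give positions on hg19 and no score, read count or depth, so a peak could be described only by place, width and overlap. Each list comes from 1 library and peaks are not replicates of a culture. No test across samples was therefore possible, and differences are given with exact 95% Clopper-Pearson intervals that take in counting error among listed peaks and nothing else. The MYC lists of sets D and C came from different callers, yet their headers name the same signal track, so presence in both cannot be read as agreement of independent replicates. The label of the set D library names that library as its own control, and IgG lists were not analysed here. Genes and sequences at the peaks were not analysed here, because the gene tables at hand are on another genome build, and neither was mappability.

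Most unmarked MYC peaks had a mark within 10 kb. The gap to the nearest mark ranged between 0 bp, edge touching edge, and 2308912 bp, with a median of 5141 bp (interval 4566 to 6047 bp) and quartiles of 868 and 27082 bp. The 769 regions of MYC set C without a mark had a median gap of 6808 bp (4944 to 8984 bp), with an overlapping interval. The gaps were not compared with those of randomly placed regions, so closeness to marks beyond the density of the mark lists was not tested. There were 506 peaks (26.6%) within 1 kb of a mark, and 1153 (60.7%) within 10 kb. Beyond that, 746 peaks (39.3%) had no mark within 10 kb, 200 (10.5%) had none within 100 kb and 11 (0.579%) none within 1 Mb. At the edge of the rule, the 22 unmarked peaks with a gap of at most 10 bp had a median width of 274 bp and 7 of them were in MYC set C, while the 23 marked peaks that shared at most 10 bp with a mark had a median width of 259 bp and 7 of them were in set C.

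H3K27ac and H3K4me1 were closer than H3K4me3. The nearest mark was H3K27ac for 898 peaks (47.3%), H3K4me1 for 712 (37.5%) and H3K4me3 for 289 (15.2%), with 5 ties given to the first mark in the order H3K4me3, H3K27ac, H3K4me1. Taken mark by mark, the median gap was 11857 bp to H3K27ac, 13991 bp to H3K4me1 and 77900 bp to H3K4me3. The H3K4me3 list is the shortest of the mark lists, with 13852 regions against 39528 for H3K27ac and 39503 for H3K4me1, and the part of list length in these gaps was not tested. Within 10 kb of the peak, H3K27ac and H3K4me1 without H3K4me3 lay around 467 peaks (24.6%), not necessarily at the same place, and all 3 marks lay around 164 (8.64%). H3K27ac alone lay around 205 peaks (10.8%), H3K4me1 alone around 194 (10.2%) and H3K4me3 alone around 36 (1.90%). Of the 506 peaks within 1 kb of a mark, 59 (11.7%, interval 9.0 to 14.8%) had a set D MYC peak overlapping that nearest mark region, against 31.2% of the peaks farther away (28.7 to 33.7%), and 29.8% of all 92883 regions of the 3 mark lists met such a peak. For MYC set C the order was the other way round. A set C region overlapped the nearest mark region of 142 of the 506 peaks (28.1%, 24.2 to 32.2%), against 13.4% of the peaks farther away (11.6 to 15.3%) and 18.3% of all mark regions, and for 126 of the 142 it was a set C region that reached over the unmarked peak as well. Only 63 unmarked peaks (3.32%) had a marked MYC peak of set D within 1 kb, and 422 (22.2%) had one within 10 kb.

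The unmarked peaks were narrow. Their widths ran between 186 and 1782 bp with a median of 279 bp (interval 273 to 284 bp), against 186 to 3268 bp and a median of 445 bp (441 to 451 bp) for marked peaks of the same list. They supplied 22.1% of the set D peaks in the lowest quartile of width, 12.5% and 5.98% in the middle quartiles and 1.55% in the highest. A narrow peak has fewer bases with which to meet a mark, and the part of the rule itself in this width difference was not tested.

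Presence in the MYC list of set C did not enter the rule. Of the unmarked peaks, 415 of 1899 (21.9%, interval 20.0 to 23.8%) overlapped a set C region, against 47.8% of the marked peaks (47.0 to 48.6%) and 45.1% of all set D peaks. Where the 2 lists met, the overlap was nearly complete, and 392 of the 415 peaks (94.5%) lay wholly inside a set C region. The gap between unmarked and marked peaks was present in each of the 4 width classes. Among the narrowest peaks, 186 to 285 bp, 15.2% of the unmarked (13.1 to 17.6%) and 22.2% of the marked (20.9 to 23.6%) were in set C. Between 286 and 422 bp the shares were 23.3% of the unmarked and 34.5% of the marked peaks, and between 423 and 620 bp they were 37.5% and 54.0%. Among the widest, from 621 bp, they were 44.3% of 70 unmarked peaks (32.4 to 56.7%) and 74.0% of 4435 marked peaks (72.7 to 75.3%). The intervals of unmarked and marked peaks did not overlap in any class.

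**Figure D1:**
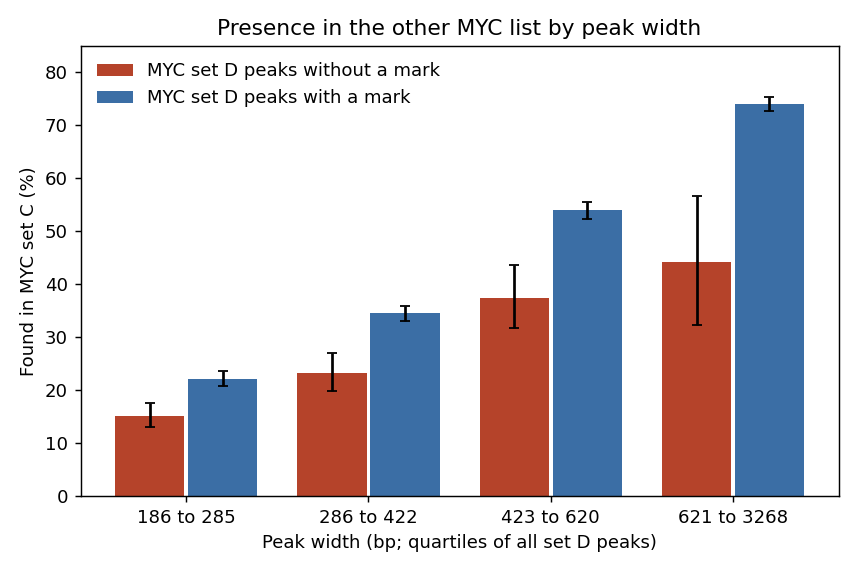
Percent of MYC set D peaks that overlap a MYC set C region, in the quartiles of peak width over all set D peaks (bp), for peaks without a mark and peaks with a mark, with exact 95% intervals as bars. The share grows with width in both, and it is 15.2% for unmarked and 22.2% for marked peaks in the narrowest class against 44.3% and 74.0% in the widest.

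Among marked peaks the share in set C differed between mark classes, and the unmarked peaks were not at the bottom. It was 13.4% at the 783 peaks with H3K4me1 alone (11.1 to 16.0%) and 25.5% at the 2986 with H3K27ac and H3K4me1 but no H3K4me3 (23.9 to 27.1%). It was 39.3% at the 2267 peaks with H3K27ac alone and 59.0% at the 10083 with H3K4me3. The 21.9% of the unmarked peaks lay above the share of the peaks with H3K4me1 alone, with intervals that did not overlap, and below the other classes. It was made up of 37.3% of the 311 unmarked peaks within 5 Mb of a centromere gap and 18.8% of the 1588 elsewhere (16.9 to 20.8%). Widths were not matched between these classes, and the part of width in their order was not tested.

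Of the 415 unmarked peaks found in set C, 140 (33.7%) lay in a set C region that itself reached a mark, and 275 (66.3%) in a set C region without any mark. The set C regions are wider, with a median of 1165 bp against 422 bp for all set D peaks. The 140 peaks were close to a mark, at a median gap of 158.5 bp, while the 275 had a median gap of 8827 bp. Those 275 peaks, 14.5% of all unmarked peaks (12.9 to 16.1%), were thus listed as unmarked MYC in both lists. Seen from set C, 769 of its 9498 regions (8.10%) had no mark, and 258 of these 769 (33.6%, interval 30.2 to 37.0%) held an unmarked set D peak.

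Presence in set C changed with the distance to the nearest mark, and did so differently near centromeres. Over all unmarked peaks it was 31.4% within 1 kb of a mark (27.4 to 35.7%), 23.3% between 1 and 5 kb and 10.6% between 5 and 10 kb. It was then 12.2% between 10 and 50 kb, 18.0% between 50 and 100 kb and 29.1% between 100 kb and 1 Mb (22.7 to 36.1%). Among peaks over 5 Mb from a centromere gap, the far peaks were seldom in set C. There the share was 31.3% of 460 peaks within 1 kb, 23.5% of 362 between 1 and 5 kb and 8.11% of 185 between 5 and 10 kb. It was 9.52%, 8.65% and 10.4% in the classes between 10 and 50 kb, 50 and 100 kb, and 100 kb and 1 Mb, and 0 of 5 beyond 1 Mb. Among peaks within 5 Mb of a centromere gap the share was 58.1% of 74 peaks between 100 kb and 1 Mb of a mark (46.1 to 69.5%), against 10.4% (5.51 to 17.5%) of the 115 such peaks elsewhere. Of the 59 peaks in set C that were over 100 kb from any mark, 47 lay within 5 Mb of a gap. Of all 80 peaks that far from a mark and near a gap, 47 had no other unmarked peak within 10 kb, against 118 of 120 elsewhere. Peaks in groups are counted separately, so the interval near the gaps rests on fewer places than peaks.

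**Figure D2:**
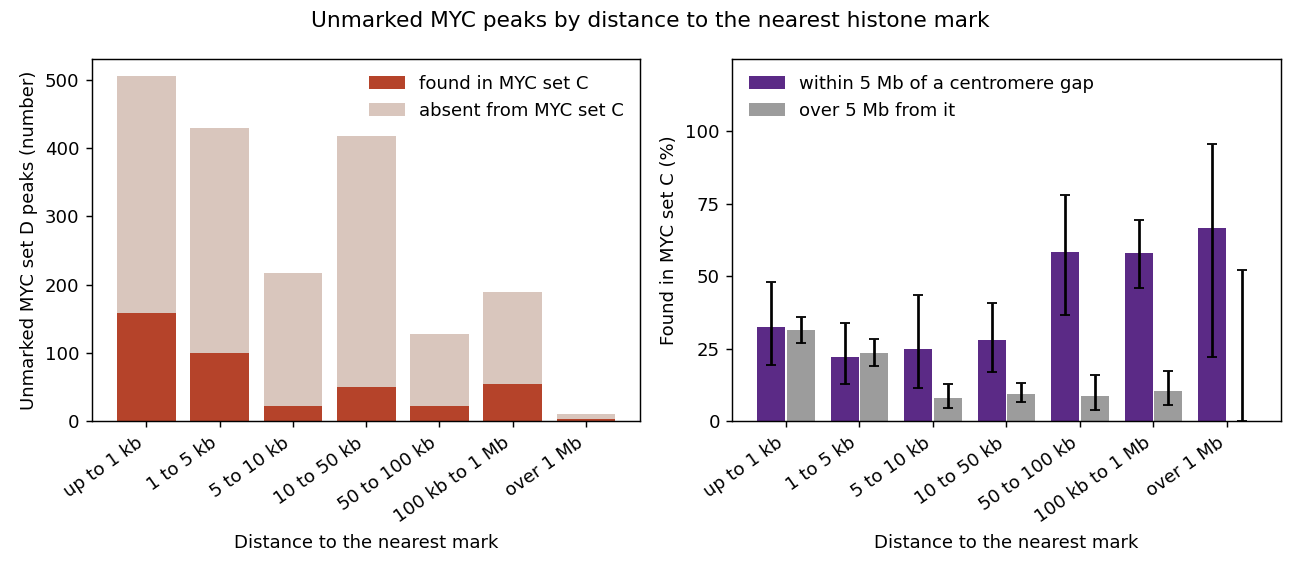
Left, number of unmarked MYC set D peaks in classes of distance to the nearest histone mark, divided into those found in and absent from MYC set C. Right, percent found in set C in the same classes for peaks within 5 Mb of a centromere gap and peaks over 5 Mb from it, with exact 95% intervals, where the class between 100 kb and 1 Mb stands at 58.1% near the gaps and 10.4% elsewhere.

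Closeness to centromeres was measured as the distance to the centromere gap of each chromosome in hg19, the stretch of unknown sequence that stands for the centromere in that build. Of the unmarked peaks, 311 (16.4%, interval 14.7 to 18.1%) lay within 5 Mb of such a gap, against 6.69% of the marked peaks (6.31 to 7.09%) and 7.71% of all set D peaks. With the longest stretch empty in all 6 lists used in place of the gap, as the plan had it, the shares were 12.3% of the unmarked peaks (10.8 to 13.8%), 6.69% of the marked and 7.28% of all set D peaks. That stretch overlaps the known gap on 17 of the 23 chromosomes and lies elsewhere on chromosomes 2, 4, 5, 8, 21 and X, so the known gaps are used below. The marked classes were between 5.87% for H3K4me1 alone and 7.94% for H3K27ac alone. The lists of the other targets had 7.37% of MYCN peaks, 6.41% of H3K4me3, 5.79% of H3K27ac and 5.49% of H3K4me1 regions within 5 Mb.

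The excess was near the gaps themselves. Within 100 kb of a gap, 91 of 151 set D peaks (60.3%, interval 52.0 to 68.1%) had no mark, and between 100 kb and 1 Mb 111 of 239 (46.4%, 40.0 to 53.0%). Between 1 and 2 Mb the share was 10.8%, between 2 and 5 Mb 10.9%, between 5 and 10 Mb 10.4% and farther away 9.48% (9.03 to 9.96%). Of all unmarked peaks, 202 (10.6%) lay within 1 Mb of a gap, compared with 1.17% of the marked peaks. Within 100 kb of a gap, 36 of the 91 unmarked peaks (39.6%, 29.5 to 50.4%) were in set C, against 6 of the 60 marked peaks (10.0%, 3.76 to 20.5%). Farther than 10 Mb away the order was the other way round, with 19.3% of the unmarked and 48.0% of the marked peaks in set C. Of the 91 unmarked peaks within 100 kb of a gap, 45 were in runs of 5 or more, joined across at most 10 kb, and 22 were alone. Most such runs were in set C as a whole or not at all, as given below. The intervals count each peak separately, so the share near the gaps rests on fewer places than peaks. The unmarked regions of set C were also near the gaps, with 238 of 769 (30.9%, 27.7 to 34.4%) within 5 Mb, against 8.13% of all set C regions. The unmarked set D peaks within 5 Mb of a gap had a median width of 314 bp, against 274 bp for those elsewhere, and a median gap to the nearest mark of 10992 bp, against 4503 bp elsewhere. Mark by mark, the median gap was 15858 bp to H3K27ac near the gaps against 11273.5 bp elsewhere, 94803 bp to H3K4me1 against 11000.5 bp, and 585799 bp to H3K4me3 against 57384 bp. The part of repeats and of read placement in these counts was not tested.

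**Figure D3:**
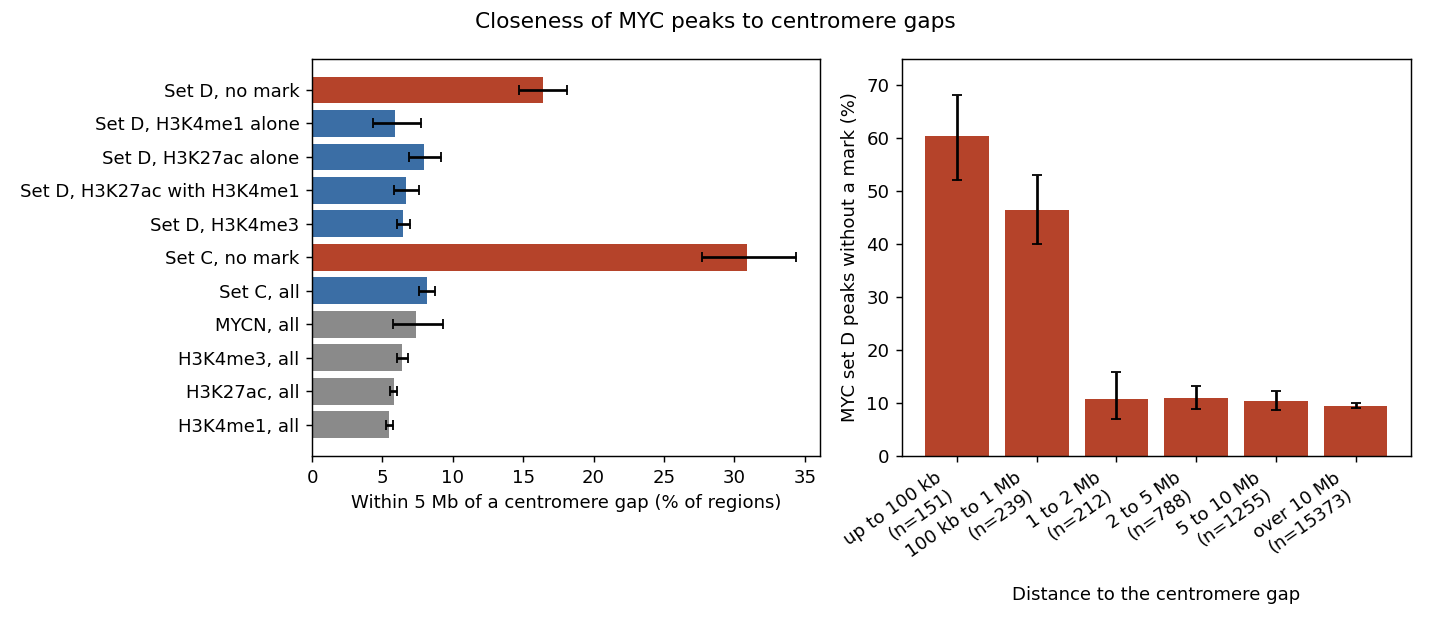
Left, percent of regions within 5 Mb of a centromere gap for MYC set D peaks by the marks they meet, for MYC set C regions without a mark and in all, and for the other lists, with exact 95% intervals. Right, percent of MYC set D peaks without a mark in classes of distance to the gap, which is 60.3% up to 100 kb and 46.4% between 100 kb and 1 Mb, and between 9.48% and 10.9% in the farther classes.

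Most unmarked peaks had no other unmarked peak close by, and those in groups were mostly within 5 Mb of centromere gaps. Another unmarked peak lay within 10 kb of 238 peaks (12.5%, interval 11.1 to 14.1%). A marked peak had another marked peak that close in 24.7% of cases. The unmarked list is shorter, and with set D peaks of both kinds counted as neighbours the deficit was gone, with a neighbour within 10 kb at 534 unmarked peaks (28.1%, 26.1 to 30.2%), 26.4% of the marked (25.7 to 27.1%) and 26.6% of all set D peaks. The median gap to the next peak of the same kind was 288909 bp for unmarked and 27316 bp for marked peaks. Joined across gaps of at most 10 kb, the 1899 peaks formed 1661 single peaks, 39 pairs, 18 runs of 3 or 4 peaks and 13 runs of 5 or more. Of the single peaks, 9.21% were within 5 Mb of a centromere gap, against 43.6% of the 78 peaks in pairs, 68.9% of the 61 in runs of 3 or 4 and 82.8% of the 99 in runs of 5 or more. Outside 5 Mb of the gaps, 5.04% of the unmarked peaks had another within 10 kb.

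The longest runs were on chromosomes 4 and 16. The run at chr4:49093831-49156984 held 20 unmarked peaks between 206 and 1064 bp wide in 63154 bp, 503.1 kb from the gap, and 5 of them were in set C. On chr16:46386828-46434450 there were 17 unmarked peaks in 47623 bp, none of them in set C. This is the single run of 5 or more that was over 5 Mb from the known gap, at 8.05 Mb. Its first peak bordered the 11.1 Mb stretch of the chromosome that is empty in all lists. Such a stretch ends at a listed region by definition, so the border is no separate sign of closeness to the centromere. On chromosome 16 the stretch overlaps the known gap, so no list had a region between the gap and this run. Distances were taken to the centromere gap alone, and other stretches of unknown sequence were not taken into account. Counting this run as over 5 Mb away depends on that choice. A second run on chromosome 4, at chr4:49294189-49332448, held 7 peaks, 6 of them in set C. Runs of 7 were also found at chr8:43821413-43838735, which ended 152 bp from the gap, and at chrX:61682790-61699500, and neither had a peak in set C.

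Of the 13 runs of 5 or more, 8 had marked set D peaks between their members and 5 had none. The run of 20 on chromosome 4 had 2 marked set D peaks among its members and that on chromosome 16 had 8, and 2 and 9 mark regions lay within 10 kb of them. Among the runs with none, some were far from any mark. The 5 peaks at chr12:34831337-34850936 were between 622851 and 641964 bp from a mark, and those at chr2:90375295-90393367 between 303668 and 321243 bp. The run at chr5:49429952-49440447 also had no marked peak between its members, yet its nearest member was 246 bp from a mark.

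Most runs were in set C as a whole or not at all. Of these 13 runs, 4 had every peak in set C, 6 had none and 3 had some. The 4 with every peak in set C were the run on chromosome 12 just given, the runs at chr2:90375295-90393367 and chr2:91596773-91614813, and the run at chr5:49429952-49440447, whose 5 peaks fell in a single set C region of 13329 bp. In all, 36 of the 99 peaks in these runs were in set C.

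**Figure D4:**
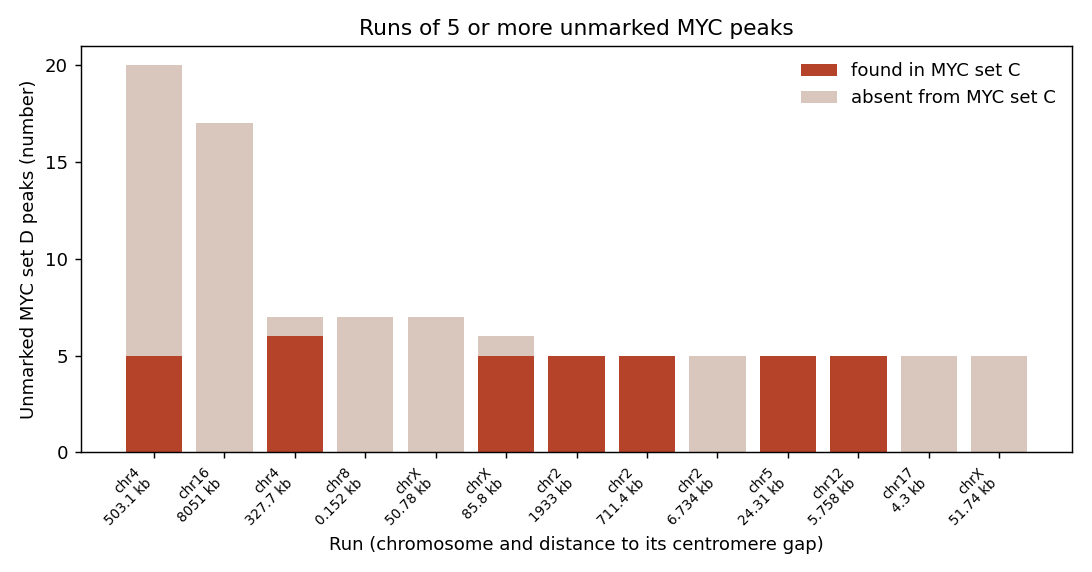
Number of unmarked MYC set D peaks in each of the 13 runs of 5 or more, joined across gaps of at most 10 kb, divided into peaks found in and absent from MYC set C. Labels give the chromosome and the distance of the run to its centromere gap in kb, and 6 runs have no peak in set C while 4 have every peak in it.

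By chromosome, the share of set D peaks without a mark was highest on X, with 99 of 578 peaks (17.1%, interval 14.1 to 20.5%), and on chromosome 4, with 114 of 761 (15.0%, 12.5 to 17.7%). It was lowest on chromosome 19, with 79 of 1026 (7.70%, 6.14 to 9.50%). Chromosomes 6 (8.15%, 6.5 to 10.1%) and 17 (8.23%, 6.71 to 9.96%) were close to it, with overlapping intervals. Chromosome 1 held the most unmarked peaks, 174 of 1903 (9.14%). The centromeric peaks made up 42 of the 114 on chromosome 4, and among its peaks over 5 Mb from the gap 10.7% had no mark, close to the 9.55% of all set D peaks over 5 Mb from a gap. On X 24 of the 99 were near the gap, and 14.7% of its other peaks had no mark. RPMI-8402 copy number was not analysed here.

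**Figure D5:**
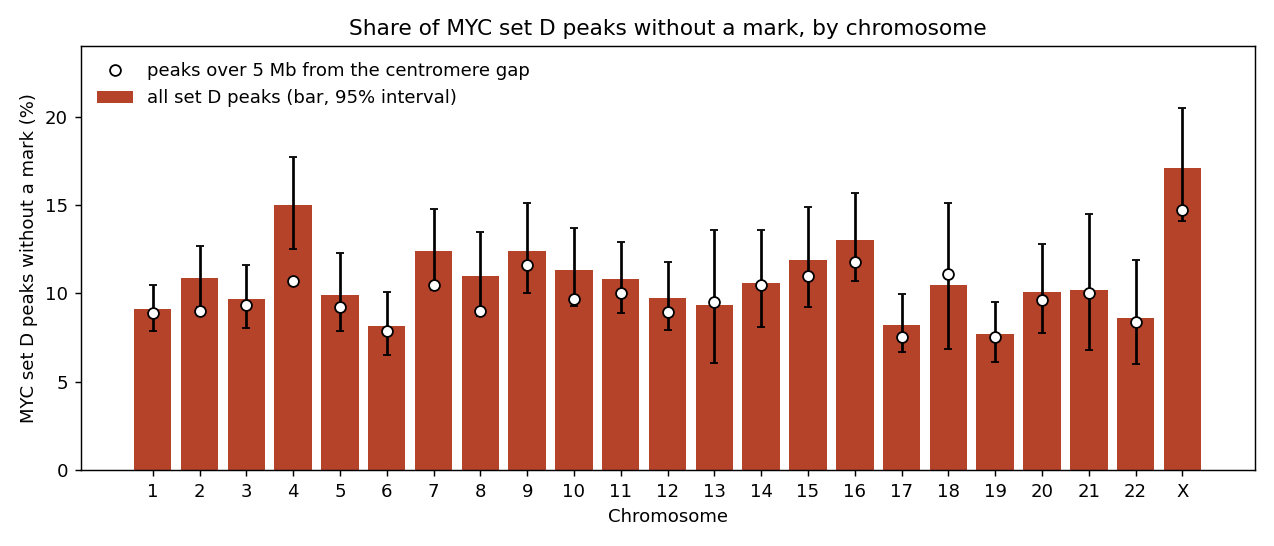
Percent of MYC set D peaks without a mark on each chromosome (bars, with exact 95% intervals) and among the peaks over 5 Mb from the centromere gap (circles). Chromosome 4 stands at 15.0% with all peaks and 10.7% without those near the gap, and X at 17.1% and 14.7%.

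The widest unmarked peaks were of both kinds, centromeric and not. The widest of all, at chr4:182161058-182162839 (1782 bp), was 129.5 Mb from the centromere gap and 37256 bp from the nearest mark, a region of H3K4me1, and it lay wholly in set C. Next came chrX:58578565-58580271 (1707 bp), chr8:46841288-46842592 (1305 bp) and chr7:56438367-56439648 (1282 bp), all within 2 Mb of their gaps. Of the 10 widest, 6 were within 5 Mb of a gap and 3 were in set C.

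Among the 10 widest that set C also held, 4 were within 5 Mb of a gap. Beside those on chromosomes 4 and 7 they included a peak at chr2:242823461-242824588 (1128 bp), only 86 bp from an H3K27ac region, chr2:122892894-122893818 (925 bp, 231 bp from H3K27ac) and chr3:31267924-31268779 (856 bp, 292 bp from H3K27ac). Others were remote from marks, such as chr11:50763866-50764661 (796 bp), at 805316 bp, and chr9:140739928-140740715 (788 bp), at 99519 bp.

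The members farthest from any mark were narrow, between 207 and 509 bp for the 10 most remote, and 3 of these were in set C. First came chrX:33216977-33217190 and chrX:33201647-33201869, 2308912 and 2293582 bp from the nearest H3K4me3 region and absent from set C. They were followed by 3 peaks on chromosome 6 between 61901774 and 61914370, next to the centromere gap and about 2.18 or 2.19 Mb from H3K27ac, of which 2 were in set C. A single peak at chr9:121284512-121284790 was 1416654 bp from H3K27ac and absent from set C.

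MYCN, a paralogue of MYC that binds the same kind of site, was rare here. Of the 1899 unmarked peaks, 12 (0.632%, interval 0.327 to 1.10%) overlapped a MYCN peak, against 838 marked peaks (5.20%, 4.86 to 5.55%) and 4.72% of all set D peaks. In the marked classes the share was 1.28% with H3K4me1 alone (0.614 to 2.34%), 2.07% with H3K27ac alone, 2.34% with H3K27ac and H3K4me1, and 7.05% with H3K4me3. The intervals of the unmarked peaks and of those with H3K4me1 alone overlapped in part, and the difference between these classes was not tested. The unmarked peaks were narrower than the marked ones, and the part of width in their lower MYCN share was not tested.

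Of these 12 peaks, 11 were within 5 kb of a mark, 3 were within 5 Mb of a centromere gap and 2 were in set C. The widest was at chr9:46843791-46844674 (884 bp), 523005 bp from the gap and 156019 bp from the nearest mark, and it was absent from set C. It was followed by chr2:92318652-92319437 (786 bp), in a run of 5 beside the gap, and by chr2:232526597-232527312 (716 bp), 3163 bp from H3K4me1. The 2 sites named by all 3 factor lists were chr15:57616093-57616803 (711 bp), 94 bp from H3K27ac, and chr2:97202406-97202863 (458 bp), 791 bp from H3K4me1.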

How the data were processed

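MYC, MYCN and the 3 histone marks were mapped by CUT&RUN with paired reads. The deposited lists hold other values than counts, namely chromosome, start, end and a name on hg19, per the submitters' processing notes, which name MACS2 and SEACR without versions. Per the file headers, MYC of set D was called with MACS2 on reads taken as unpaired and MYC of set C with SEACR in stringent mode on pairs. The headers give MACS2 for H3K4me3, and cutruntools with q below 0.01 for MYCN. The H3K27ac and H3K4me1 lists have no header. No list is described as pooled, and the aligner is not given in the sources used here. A broad call and a narrow call reach differently far, which moves the border between marked and unmarked peaks.

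Regions on sequences other than chromosomes 1 to 22 and X were left out (53 of 18071 for MYC set D). Overlap means at least 1 bp, and a gap is the number of bases between edges. Overlap counts equalled those of bedtools 2.31.1 in 30 of 30 ordered pairs of lists, and the code was tested on simulated data. The plan took the longest stretch empty in all lists as the centromere. It missed the centromere on 6 chromosomes, so the centromere gaps of hg19, listed in the plan as a second choice and entered by hand from general knowledge of that build rather than read from a file, lead the text. No region of any list lay in these 23 gaps. Named regions were the 10 widest members, the 10 widest in set C, the widest in MYCN, the 10 farthest from a mark and the 5 runs with the most peaks, and further ones were named after their values were seen. Members and lists were chosen with earlier results of these data known. Planned comparisons with genes and motifs were not run. Python 3.11.15, numpy 2.4.6, scipy 1.17.1, pandas 2.3.3 and matplotlib 3.10.9 were used.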

Additional observations from a re-analysis of the deposited data

How the results depend on the processing

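The 7 summary values (number, presence in set C, gap to a mark, neighbours, centromere, width and MYCN) were recomputed under 73 changes of a single choice, of which 33 kept the value within its interval (or the number within 1.5 times) and 40 did not. The share of unmarked peaks in set C was 21.9%. It was 27.7% when a mark had to cover the peak's centre, 26.3% when marks had to cover at least 0.5 of the peak and 18.4% when a mark within 1 kb counted. It was 34.1% without H3K4me3, 31.3% without H3K27ac, 19.4% without H3K4me1, 38.7% among set D peaks at or above the median width and 18.8% outside 5 Mb of the known centromere gaps, which was added after seeing the data. The median gap to a mark, 5141 bp, was 996 bp with the centre rule, 1096 bp with the 0.5 rule, 11836 bp with the 1 kb rule, 3861 bp without H3K4me3, 10077.5 bp without H3K4me1 and 4503 bp outside the known gaps' 5 Mb. The number of members, 1899, was 4273 without H3K4me3, 4166 without H3K27ac and 341 among the wider peaks. The median width, 279 bp, was 307 bp by centre, 304 bp by the 0.5 rule, 342 bp without H3K4me3, 308.5 bp without H3K27ac and, by construction, 500 bp among the wider peaks. The share with another member within 10 kb, 12.5%, was 15.5% without H3K27ac, 9.60% outside 5 Mb of the longest empty stretch and 5.04% outside 5 Mb of the known gaps, and 9.27%, 22.3% and 30.7% at 5, 50 and 100 kb. The share within 5 Mb of the longest empty stretch, 12.3%, was 14.1% with the 1 kb rule, 8.66% without H3K4me3, 9.58% without H3K27ac, 10.3% without H3K4me1, 17.3% among the wider peaks, 8.06% within 2 Mb, 18.4% within 10 Mb and 16.4% with the known gaps. The MYCN share, 0.632%, was 1.15% by centre, 2.01% without H3K4me3, 1.42% without H3K27ac and 2.05% among the wider peaks. Leaving out a mark list adds peaks that carry that mark to the members, so the number cannot fall by construction. The direction of the other values is not fixed by this and depends on the peaks added. The centre and 0.5 rules add peaks that overlap a mark, and the 1 kb rule drops every peak within 1 kb of one. The median gap thus falls or rises by construction under these rules. A longer distance to a neighbour or to the empty stretch cannot lower a share, and a shorter one cannot raise it. For the other values the cause was not tested. No paired analysis was possible because each list is a single library with no test across samples. The centromere share has no value once centromeric peaks are left out. Depth is unknown, so whether a mark or a MYC region was missed at an unmarked peak cannot be told from these lists.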

Other observations

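At the 46 ends of the 23 chromosomes, the outermost region of the 6 lists was an unmarked MYC set D peak in 6 cases and a marked one in 4. It was a region of H3K27ac at 17 ends, of H3K4me1 at 13 and of MYC set C at 6. Unmarked peaks are 10.5% of the set D peaks and 1899 of the 121294 regions of the 6 lists. The counts at the ends are small and were not tested against these shares. On chromosome 1 the unmarked peak was chr1:10023-10222, 2278 bp from the nearest mark, and on chromosome 16 it was chr16:60287-61136 (850 bp), 1703 bp from a mark. The others were chr10:135524089-135524277, chr16:90293287-90293509, chr17:51333-51565 and chr13:19299564-19299831. The peak on chromosome 13 lay 299563 bp from the centromere gap, beside the short arm for which hg19 has no sequence, and 725056 bp from a mark. None of the 6 was in MYC set C. A set C region reaching over such a peak would mostly have been the outermost region itself, so this absence follows largely from the choice and is no finding.

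Of the 1899 unmarked peaks, 389 (20.5%) had no other MYC set D peak within 100 kb, whether marked or not (interval 18.7 to 22.4%), against 14.7% of the marked peaks (14.1 to 15.2%) and 15.3% of all set D peaks.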
